A study of Homo sapiens with 24 samples.

Results

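The genes described here are LINC02474, LINC01029, GPAT2P1, TRBC2, LRRC17 and GRTP1, 6 of the 61533 genes in the exon count table of newly made RNA. They were chosen by their measured levels, because each stood apart in the SoF GR cells at 0, 1, 2 and 3 h of dexamethasone. The difference of the SoF line from the other lines is therefore given as a description with no test. All 6 passed the filter on low counts in both fits used below. LINC02474, LINC01029, GPAT2P1 and TRBC2 were higher in the SoF GR cells, and LRRC17 and GRTP1 were lower.

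U2OS cells, a human osteosarcoma line, stably expressed the glucocorticoid receptor (GR) with a C-terminal HaloTag, either as the wild-type protein (wt), as the K492A mutant with strongly reduced RNA binding and a smaller loss of DNA binding (SoF), or as the R470A mutant with reduced DNA binding alone (Ctrl). Each construct was integrated with PiggyBac from a vector with a CMV promoter, selected with puromycin and sorted on HaloTag dye. For each line 1 sorted intensity fraction was kept, picked so that the lines had like amounts of GR protein in the nucleus, so construct and pool cannot be told apart. All cells were grown in charcoal-stripped serum and received 200 µM 4-thiouridine, which enters RNA as it is transcribed, for the last 1 h. The synthetic glucocorticoid dexamethasone was given at 100 nM for 1, 2 or 3 h, and the 0 h cells received 0.01% ethanol. With 3 lines and 4 times this made 12 groups of 2 libraries each, 8 per line. Nothing states that the 2 libraries of a group came from separate cultures, so p-values measure the spread between these libraries, which may be technical. Labelled RNA was biotinylated and pulled down in replicate pairs, so variation between pulldowns may be missing from that spread.

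GR is a transcription factor that moves to the nucleus when it binds a glucocorticoid and acts on genes through short palindromic DNA elements. It also binds RNA through basic residues next to its DNA-binding domain. Because 4-thiouridine labels only RNA made during the pulse, a level here stands closer to the rate of synthesis than to the amount of RNA in the cell. In such bulk libraries, fewer cells making an RNA and less RNA made per cell cannot be told apart.

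Total counts per library lay between 8106036 and 15820806, and between 9056350 and 13410755 for SoF. NR3C1, which encodes GR and whose reads can also come from the transgene, had a median of 633 CPM (counts scaled to a common library total with TMM factors) in wt, 2187 in SoF and 2858 in Ctrl. It was higher in both mutant lines than in wt at each of the 4 times. The 6 genes were chosen because SoF stood apart from both other lines, so they are not set against this order. The lines were matched on nuclear GR protein and not on this RNA. FKBP5, TSC22D3 and PER1, known glucocorticoid targets, all rose at 3 h in wt and SoF, and FKBP5 and PER1 rose in Ctrl. Of 8 osteoblast genes, RUNX2, ALPL, COL1A1 and SPARC were well detected. SPP1 had 416 counts in all 24 libraries, BGLAP 246, COL1A2 72 and SP7 14. The summed level of these 8 markers ran from 836 to 1329 CPM in wt, 602 to 962 in SoF and 739 to 1408 in Ctrl. COL1A1 held the largest part, with line means of 646 CPM in wt, 397 in SoF and 641 in Ctrl. Of the 6 tested markers, 0 were called between SoF and both other lines by edgeR or DESeq2. At an unadjusted p under 0.05 against both lines there were 3. Against wt, SPP1 was at -1.10 (log2, adjusted p = 0.0285, edgeR) and COL1A1 at -0.69 (adjusted p = 0.0510). Against Ctrl they were at -0.835 and -0.69 (adjusted p = 0.173 and 0.0900, edgeR).

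LINC02474 is a long intergenic noncoding RNA (ENSG00000228437.5, hg38 chromosome 1, 221966341 to 221984964, plus strand) with no function assumed here. In SoF its 2 libraries held 18.1 and 8.62 CPM at 0 h, 21.6 and 9.22 at 1 h, 25.0 and 8.60 at 2 h, and 25.7 and 7.65 at 3 h. The 8 wt libraries ran from 0.308 to 2.31 CPM with a median of 1.30, and the 8 Ctrl libraries from 0.180 to 1.73 with a median of 1.04. Every SoF library lay above every wt and Ctrl library, and the lowest SoF library was 3.31-fold above the highest of the others. The line means were 15.6 ± 7.88 CPM in SoF, 1.29 ± 0.686 in wt and 0.956 ± 0.520 in Ctrl (SD, n = 8), which is a 12.1-fold difference from wt and a 16.3-fold difference from Ctrl.

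The SoF libraries of LINC02474 also differed from each other. Replicate 1 had 245, 215, 309 and 318 counts at 0, 1, 2 and 3 h, whereas replicate 2 had 86, 89, 95 and 89. Averaged over the 4 times, replicate 1 held 22.6 ± 3.51 CPM and replicate 2 held 8.52 ± 0.647 (SD over 4 times), so replicate number moved this gene more than time did. A gap of at least 2-fold in the same direction at all 4 SoF times was found for 8 of 23651 genes with replicate 1 higher, and for 8 with replicate 2 higher. LINC02474 ranked 6 among the first 8 by its smallest gap (log2 1.052), beside ZNF114, UCA1, SAA1 and SAA2. In wt no gene did so, and in Ctrl 1 and 6 genes did. Replicate 2 alone still lay above every wt and Ctrl library.

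LINC01029, a second long intergenic noncoding RNA (ENSG00000265843.3, chromosome 18, 77970637 to 77993731, minus strand), was the most abundant of the 6 per kilobase of exon. Its mean per kb was 30.0 CPM in SoF, with 10.8 for wt and 10.0 for Ctrl, where LINC02474 reached 11.4 in SoF and the other 4 genes between 0.126 and 3.35. At 0 h the SoF libraries held 123 and 181 CPM, the wt libraries 50.6 and 46.6, and the Ctrl libraries 50.4 and 55.2. At 3 h these values were 87.9 and 84.9 for SoF, against 31.4 and 23.8 for wt and 42.3 and 25.4 for Ctrl. SoF lay above both other lines at each time, but over all 24 libraries the margin was narrow, since the lowest SoF library (84.85 CPM at 3 h) barely exceeded the highest wt library (84.66 at 1 h). Means were 134 ± 40.8 CPM in SoF, 48.1 ± 18.4 in wt and 44.5 ± 12.7 in Ctrl (SD, n = 8). The SoF mean was 2.47 to 3.13 times the wt mean over the 4 times.

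**Figure D1:**
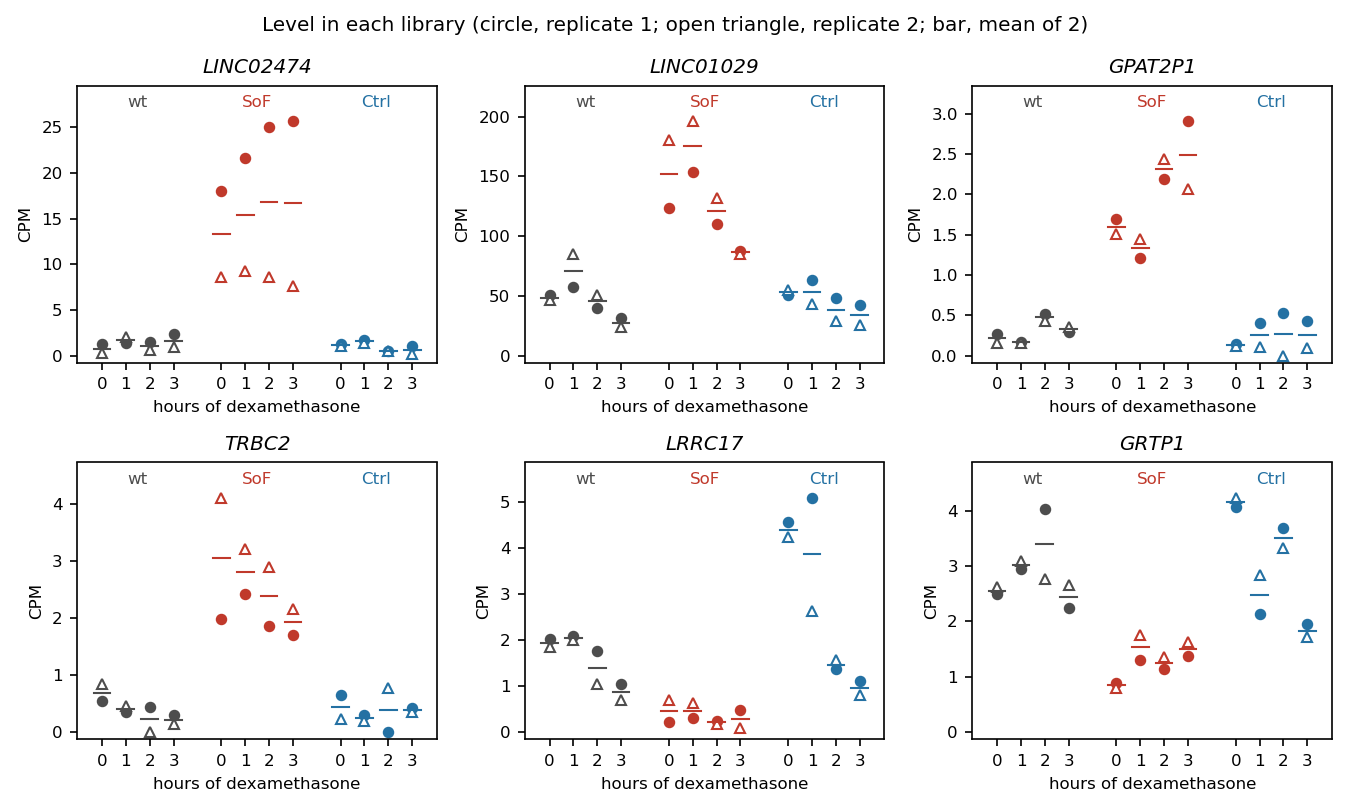
CPM of the 6 genes in each of the 24 libraries, by line and hours of dexamethasone, with a filled circle for replicate 1, an open triangle for replicate 2 and a bar for the mean of 2. SoF lies above wt and Ctrl for 4 genes and below them for LRRC17 and GRTP1, and the 2 SoF libraries of LINC02474 stand apart at every time.

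GPAT2P1 is a transcribed pseudogene (ENSG00000237510.7, chromosome 2, 95792220 to 95800166, plus strand, 14 exons) of GPAT2, which encodes a mitochondrial enzyme of the first step of glycerolipid synthesis. Its SoF libraries ran from 1.21 to 2.91 CPM with a median of 1.88, the wt libraries from 0.154 to 0.514 with a median of 0.284, and the Ctrl libraries from 0 to 0.528 with a median of 0.130. The lowest SoF library was 2.29-fold above the highest of the others. The SoF mean of 1.93 ± 0.572 CPM (SD, n = 8) was 6.59-fold above wt and 8.53-fold above Ctrl. Counts were low, 12 to 36 per SoF library, 2 to 7 per wt library and 0 to 5 per Ctrl library. The 1 Ctrl library at 0 counts allows up to 0.213 CPM (3 counts, counting error only).

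Reads of GPAT2P1 and GPAT2 are hard to separate. GPAT2 lies 222 kb away on the opposite strand (chromosome 2, 96021946 to 96039451, minus strand). Of the 14 GPAT2P1 exons, 9 matched GPAT2 with no mismatch, and the first 13 together held 7 mismatches in 1428 bases (99.5% identity). The last exon was less alike, with 48 mismatches in 244 bases (80.3% identity) when compared without a gap. To show how little separates the pair, the first 100 bases of exon 10 are printed 5′ to 3′ from hg38, with the 2 mismatched bases in capitals, for GPAT2P1 at chr2:95798274-95798373 (plus strand) and GPAT2 at chr2:96026206-96026305 (minus strand).
GPAT2P1: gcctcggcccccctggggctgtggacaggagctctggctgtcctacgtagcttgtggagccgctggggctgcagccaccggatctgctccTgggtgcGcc
GPAT2: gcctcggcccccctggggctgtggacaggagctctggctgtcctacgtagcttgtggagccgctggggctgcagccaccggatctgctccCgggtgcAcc

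GPAT2 was itself higher in SoF, at 3.41 to 6.24 CPM against 0.447 to 1.32 in wt and 0.118 to 0.7095 in Ctrl. In the edgeR fit on line, GPAT2 was 2.52 ± 0.23 above wt and 3.51 ± 0.26 above Ctrl (log2 ± SE). Its p-values are not given, because its reads may be those of GPAT2P1, which was chosen on this difference. Of the reads assigned to either gene, GPAT2P1 took 25.4% in wt (31 counts beside 91), 28.3% in SoF (178 beside 452) and 33.3% in Ctrl (19 beside 38). How reads matching both places were treated is not given in the sources used here, and the level of each gene is uncertain on that account. Of the 8 tested acyltransferase genes GPAM, GPAT2 to GPAT4 and AGPAT1, 2, 4 and 5, GPAT2 was the 1 called against both lines, where 1.56% of all genes were. That call is not independent of the choice of GPAT2P1. The median of the list was 0.062 against wt and -0.016 against Ctrl (log2), beside -0.007 and 0.005 over all tested genes.

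TRBC2 is the second constant gene of the T cell receptor beta chain (ENSG00000211772.11, chromosome 7, 142801041 to 142802748, plus strand, 4 exons), which T cells join to rearranged variable segments. SoF held 1.99 and 4.11 CPM at 0 h, 2.41 and 3.21 at 1 h, 1.86 and 2.90 at 2 h, and 1.70 and 2.15 at 3 h. The wt libraries ran from 0 to 0.846 CPM (median 0.394) and the Ctrl libraries from 0 to 0.781 (median 0.333). The lowest SoF library was 2.00-fold above the highest of the others, and the SoF mean of 2.54 ± 0.818 CPM (SD, n = 8) was 6.61-fold above wt and 6.89-fold above Ctrl. The counts behind this were 21 to 41 per SoF library and 0 to 11 elsewhere, and the libraries at 0, which were 1 in wt and 1 in Ctrl, allow up to 0.260 and 0.317 CPM.

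TRBC1, the neighbouring constant gene 7.67 kb upstream, did not follow this pattern. It held 0.401 ± 0.422 CPM in wt, 0.400 ± 0.248 in SoF and 0.228 ± 0.146 in Ctrl (SD, n = 8), and was too low to be tested. The pair is less alike than GPAT2P1 and GPAT2, with 17 mismatches in the 512 bases of the first 3 exons (96.7% identity). For the last exon no like stretch was found without a gap, since the best one (36.6% identity) lay upstream of the match to exon 3. The first 100 bases of exon 3 are printed 5′ to 3′ from hg38, plus strand, with the 8 mismatched bases in capitals, for TRBC2 at chr7:142802105-142802204 and TRBC1 at chr7:142792692-142792791, because they show the letters by which reads can be assigned.
TRBC2: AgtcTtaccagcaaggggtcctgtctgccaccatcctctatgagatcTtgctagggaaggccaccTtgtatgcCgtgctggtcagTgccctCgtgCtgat
TRBC1: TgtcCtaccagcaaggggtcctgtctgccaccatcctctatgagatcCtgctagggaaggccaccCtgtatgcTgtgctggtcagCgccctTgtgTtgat

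T cell genes were uneven in their counts. Over all 24 libraries CD3E and CD3G each had 2 counts, CD2 had 1, CD4 had 24 and CD3D had 36, and TRGC1, TRGC2 and TRDC had none. PTPRC (260 counts), LCK (247), TRAC (237) and CD8A (124) were counted in every library, with totals for the first 3 near the 301 of TRBC2. Of 10 T cell markers, TRAC, PTPRC and LCK were tested, and 0 of the 3 were called between SoF and both other lines by edgeR or DESeq2, or passed an unadjusted p of 0.05 against both. The summed level of all 10 markers ran from 2.24 to 5.06 CPM in wt, 1.78 to 5.92 in SoF and 1.53 to 4.19 in Ctrl, ranges that overlapped. TRAC, the alpha chain constant gene, held 0.698 CPM in wt, 0.842 in SoF and 0.942 in Ctrl.

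**Figure D2:**
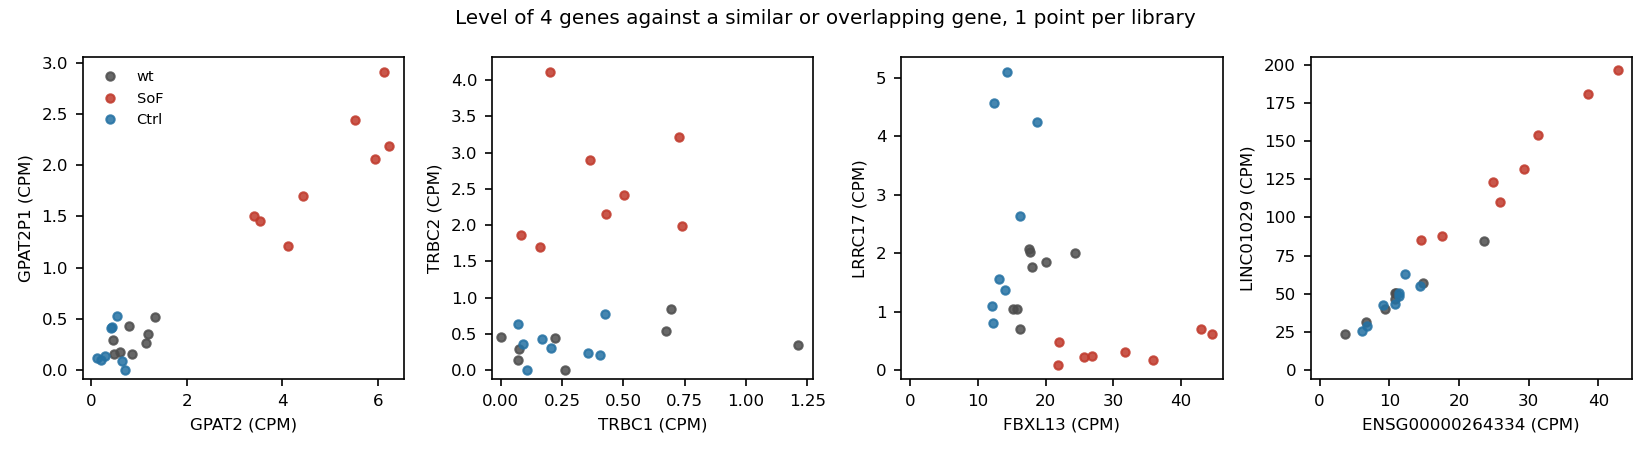
CPM of GPAT2P1, TRBC2, LRRC17 and LINC01029 (vertical axes) against GPAT2, TRBC1, FBXL13 and ENSG00000264334 (horizontal axes), with 1 point per library and colour for line. SoF points are high on both axes for GPAT2P1 and LINC01029, high on the vertical axis alone for TRBC2, and low for LRRC17 where FBXL13 is high.

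LRRC17 encodes a secreted leucine-rich repeat protein known to restrain RANKL-driven osteoclast formation (ENSG00000128606.13, chromosome 7, 102913000 to 102945111, plus strand). It was lower in SoF, with 0.221 and 0.702 CPM at 0 h, 0.302 and 0.621 at 1 h, 0.243 and 0.181 at 2 h, and 0.485 and 0.0860 at 3 h. In wt it was at 2.02 and 1.85 CPM at 0 h and at 1.04 and 0.699 at 3 h. The Ctrl libraries held 4.57 and 4.24 CPM at 0 h and 1.103 and 0.810 at 3 h. SoF lay below both other lines at each of the 4 times. Across all times the ranges touched, since the highest SoF library (0.702 CPM at 0 h) was level with the lowest wt library (0.699 at 3 h).

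The means of LRRC17 were 0.355 ± 0.222 CPM in SoF, 1.56 ± 0.546 in wt and 2.67 ± 1.72 in Ctrl (SD, n = 8), which put SoF 4.40-fold below wt and 7.53-fold below Ctrl. The distance from Ctrl was 9.55-fold at 0 h and 3.35-fold at 3 h. SoF counts were 1 to 7 per library, around the 3 counts that bound a zero. Of the other 7 tested RANKL signalling genes, 0 were called against both lines by edgeR or DESeq2, with 1 at an unadjusted p under 0.05 against both, and their median was 0.162 against wt and -0.101 against Ctrl (log2). The ligand gene TNFSF11 had 8 counts in 24 libraries, and TNFRSF11B, which encodes its decoy receptor, held 40.0 CPM in wt, 24.2 in SoF and 35.7 in Ctrl, a difference that was not called (SoF minus wt log2 -0.72, adjusted p = 0.332, edgeR).

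LRRC17 lies wholly inside FBXL13, an F-box gene on the opposite strand, and 317 of its 2827 exon bases (11.2%) are also FBXL13 exon. FBXL13 moved the other way. It held 31.4 ± 8.95 CPM in SoF, 18.1 ± 2.95 in wt and 14.1 ± 2.32 in Ctrl (SD, n = 8). That the counting used strand is stated by the title of the table alone, so reads of the shared bases are uncertain. The promoter of LRRC17 was the 1 of the 6 with an entry in the RefSeq table (GRCh38.p14), and it is printed 5′ to 3′ because LRRC17 fell with dexamethasone in Ctrl. The 250 bases before its start are at chr7:102912750-102912999, plus strand.
LRRC17: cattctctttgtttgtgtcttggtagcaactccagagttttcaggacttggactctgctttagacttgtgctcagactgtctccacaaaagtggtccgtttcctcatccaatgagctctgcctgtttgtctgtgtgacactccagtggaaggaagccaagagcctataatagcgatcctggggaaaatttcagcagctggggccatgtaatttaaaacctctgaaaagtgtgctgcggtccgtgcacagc

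This window held no arm of the glucocorticoid response element (AGAACA, on either strand), no full element (the arms AGAACA and TGTTCT with 3 bases between them, which contains the arm) and no TATA box (TATAAA, on either strand). Among 35116 promoters of this length the arm was found in 12.4%, the full element in 0.00285% and the TATA box in 10.7%. These letters are not in this window, which says nothing of elements elsewhere.

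GRTP1 encodes a TBC domain protein of the Rab GTPase-activating family (ENSG00000139835.14, chromosome 13, 113324163 to 113364148, minus strand). At 0 h its SoF libraries held 0.885 and 0.802 CPM, the wt libraries 2.49 and 2.62, and the Ctrl libraries 4.07 and 4.24. At 3 h the SoF libraries were at 1.37 and 1.63, against 2.24 and 2.66 for wt and 1.95 and 1.71 for Ctrl. SoF lay below both lines at each time, with a gap from Ctrl of 4.93-fold at 0 h and 1.22-fold at 3 h, where the groups nearly met. Means were 1.28 ± 0.333 CPM in SoF, 2.86 ± 0.546 in wt and 3.00 ± 0.986 in Ctrl (SD, n = 8).

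Of the other 34 tested TBC domain genes, 1 was called between SoF and both other lines by edgeR, where 1.56% of all genes were. At an unadjusted p under 0.05 against both lines there were 5. The called gene, TBC1D14, held 36.3 ± 6.27 CPM in SoF, 45.7 ± 4.62 in wt and 46.9 ± 7.05 in Ctrl (SD, n = 8). SoF differed by -0.33 ± 0.10 from wt and by -0.37 ± 0.10 from Ctrl (log2 ± SE, adjusted p = 0.0465 and 0.0395, edgeR). The median of the 34 was -0.080 against wt and -0.046 against Ctrl (log2). GRTP1 shares 159 exon bases with GRTP1-AS1 on the opposite strand.

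Across all genes, 330 of 21122 (1.56%) differed by the edgeR test between SoF and each other line with 1 sign, 215 of them higher in SoF. The 8 SoF libraries lay above the other 16 for 70 genes (0.331%) and below them for 12 (0.0568%). Among those 70, ranked by the smaller of the 2 log2 differences, LINC02474 stood at 1 (3.59), GPAT2P1 at 2 (2.69), TRBC2 at 5 (2.66) and LINC01029 at 24 (1.48). LRRC17 and GRTP1 were not among the 12. These shares are background for genes selected on that contrast, and nothing is read from them.

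Whether the 6 genes also differed between Ctrl and wt was tested, since the choice rested on SoF. None of the 6 was called by edgeR, against a background of 4.77% of 21122 genes, with 1 at an unadjusted p under 0.05 and 0 called by DESeq2. LRRC17 came nearest, at 0.77 ± 0.35 above wt (log2 ± SE, adjusted p = 0.225). By time its Ctrl mean was 2.28-fold the wt mean at 0 h and 1.099-fold at 3 h. With a time term added, LRRC17 was called (0.69, adjusted p = 0.0251, edgeR), and over all alternatives its adjusted p ran from 0.0251 to 0.977. The other 5 lay between -0.44 ± 0.43 for LINC02474 and 0.07 ± 0.19 for GRTP1. For LINC02474, GPAT2P1 and TRBC2, which had few counts in wt and Ctrl, the SEs of 0.43 to 0.44 limit what could be detected.

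Dexamethasone was then compared with 0 h within each line, a contrast the choice did not use. At 1 h none of the 6 genes was called in any line, where edgeR called 0.156% of 23651 genes in wt, 0.165% in SoF and 0.0465% in Ctrl, with 1 member at an unadjusted p under 0.05 in each line and 0 called by DESeq2, which gave GPAT2P1 no adjusted p in wt and SoF. At 2 h 1 gene was called, LRRC17 in Ctrl, against 4.6% of all genes in wt, 5.68% in SoF and 7.95% in Ctrl. At 3 h the calls were LINC01029 in SoF and LRRC17 and GRTP1 in Ctrl, against 10.7%, 19.3% and 14.2%. Over the 3 times, 0 of 6 were called in wt (background 11.8%), 1 of 6 in SoF (20.3%) and 2 of 6 in Ctrl (16.3%). No gene of the 6 rose with dexamethasone in any line by this test.

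LINC01029 fell by 0.81 ± 0.26 on the log2 scale in SoF at 3 h (adjusted p = 0.0283, edgeR). Its change in wt was -0.82 ± 0.27 (adjusted p = 0.0504, edgeR), short of the call. DESeq2 called it (adjusted p = 0.0278), and over all alternatives its adjusted p ran from 0.000347 to 0.346. In Ctrl the change was -0.64 ± 0.27 (adjusted p = 0.115). The 3 values lay within 1 SE of each other. The call in SoF ended when any of 3 single libraries was left out. Without SoF 0 h replicate 2 the change was -0.51 (adjusted p = 0.335), without SoF 3 h replicate 1 it was -0.85 (adjusted p = 0.117), and without SoF 3 h replicate 2 it was -0.79 (adjusted p = 0.146).

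LRRC17 fell in Ctrl by 1.57 ± 0.41 on the log2 scale at 2 h (adjusted p = 0.0194, edgeR) and by 2.19 ± 0.44 at 3 h (adjusted p = 0.00179). At 3 h its change was -1.15 ± 0.46 in wt (adjusted p = 0.113) and -0.56 ± 0.74 in SoF (adjusted p = 0.638), where few counts were left. The 3 h call in Ctrl stood without any 1 of the 4 libraries involved. The 2 h call did not, with values of -1.64 without Ctrl 0 h replicate 2, -1.49 without Ctrl 2 h replicate 1 and -1.69 without Ctrl 2 h replicate 2 (adjusted p = 0.0946, 0.120 and 0.126, edgeR).

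GRTP1 fell by 1.17 ± 0.29 on the log2 scale in Ctrl at 3 h (adjusted p = 0.00817, edgeR). Its 3 h change was -0.06 ± 0.28 in wt and 0.82 ± 0.36 in SoF (adjusted p = 0.924 and 0.127). The Ctrl path was uneven, with means of 4.16, 2.49, 3.52 and 1.83 CPM at 0, 1, 2 and 3 h. The call was lost without Ctrl 0 h replicate 2 (-1.15, adjusted p = 0.0587) and without Ctrl 3 h replicate 2 (-1.08, adjusted p = 0.0983).

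LINC02474, GPAT2P1 and TRBC2 were not called at any time. In SoF, where their counts were largest, the 3 h changes were 0.31 ± 0.52 for LINC02474, 0.63 ± 0.47 for GPAT2P1 and -0.64 ± 0.53 for TRBC2 (log2 ± SE, adjusted p = 0.717, 0.373 and 0.431, edgeR). In wt and Ctrl the SEs at 3 h ran from 0.82 to 1.03, which limits what could be seen there.

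**Figure D3:**
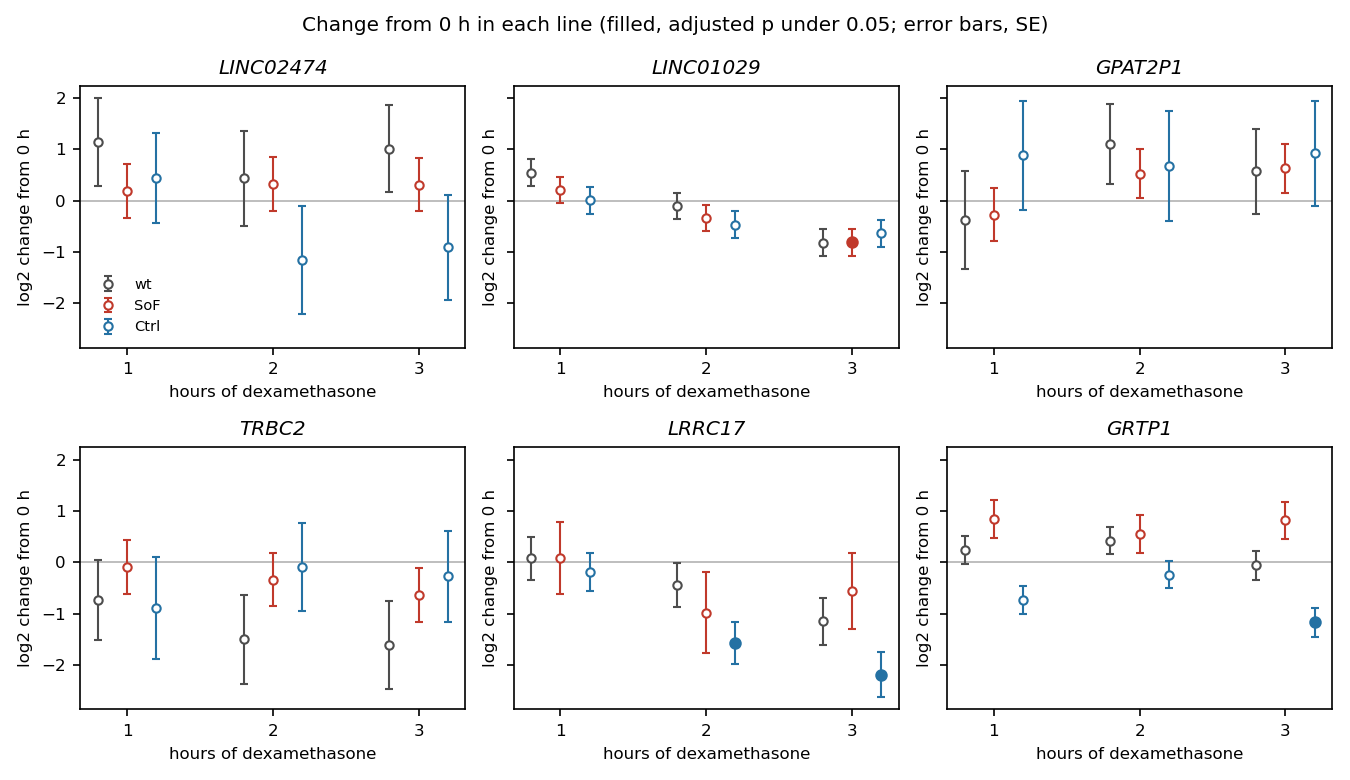
Log2 change from 0 h for the 6 genes at 1, 2 and 3 h of dexamethasone, by line, with SE bars from the edgeR fit and filled points where the adjusted p was under 0.05. The filled points are LINC01029 in SoF at 3 h, LRRC17 in Ctrl at 2 and 3 h and GRTP1 in Ctrl at 3 h, and all of them are below 0.

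Whether the response at 3 h differed between lines was tested directly with an interaction contrast. No member was called for SoF minus wt, SoF minus Ctrl or Ctrl minus wt, where 0.0%, 0.0127% and 0.0% of 23651 genes were called by edgeR, and DESeq2 called 0 members. For SoF minus Ctrl that tool gave an adjusted p to 1 of the 6, LINC01029, so its count there says nothing of the other 5. The number of members at an unadjusted p under 0.05 was 0, 1 and 1. The widest difference was that of GRTP1 between SoF and Ctrl, at 1.99 ± 0.46 (log2 ± SE, adjusted p = 0.386, edgeR), followed by LINC02474 between Ctrl and wt at -1.92 ± 1.33 (adjusted p = 0.982). LINC01029 differed by 0.00 ± 0.35 between SoF and wt. So a call in 1 line and not in another is not shown to be a difference between lines.

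The 3 nearest tested genes on each side of each member were then compared, to see whether a shift stood at 1 gene or over a stretch. Of the 36 neighbours, 3 were called between SoF and both other lines by edgeR (8.33% against 1.56% of all genes), and 1 of these moved in the direction of its member. That gene, ENSG00000264334, is a long noncoding RNA inside the span of LINC01029 on the same strand, with no exon base in common. Unspliced LINC01029 RNA could be counted to it, which was not tested, so it is not an independent neighbour. ENSG00000264334 held 28.1 ± 9.61 CPM in SoF, 11.3 ± 5.94 in wt and 10.3 ± 2.78 in Ctrl (SD, n = 8). SoF was 1.32 ± 0.27 above wt and 1.46 ± 0.28 above Ctrl (log2 ± SE, adjusted p = 0.00438 and 0.00180, edgeR). The other neighbours of LINC01029 lay between -0.18 and 1.13 (log2 differences of SoF from wt or Ctrl). Of them ATP9B, 1076 kb away, passed the threshold against wt alone (0.54, adjusted p = 0.007, edgeR).

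The other called neighbours were FBXL13 and ARMC10, an armadillo repeat gene, both beside LRRC17 and both higher in SoF. FBXL13 was 0.80 ± 0.15 above wt and 1.16 ± 0.15 above Ctrl (adjusted p = 0.00172 and 1.69e-05, edgeR), and ARMC10 was 0.49 ± 0.11 and 0.43 ± 0.11 above them (adjusted p = 0.00854 and 0.0293). All 6 neighbours of LRRC17 had values above 0 against both lines, between 0.11 and 1.16, where LRRC17 itself was at -2.13 and -2.90. Those not called against both lines each passed the threshold against 1 line. NAPEPLD did so against wt (adjusted p = 0.00906, edgeR). FAM185A, RPL7AP39 and NFE4 did so against Ctrl (adjusted p = 0.00322, 0.0327 and 0.0084, edgeR). ARMC10 lost its call against Ctrl without any 1 of 6 libraries, which were replicate 2 of SoF at 0, 1, 2 and 3 h, Ctrl 0 h replicate 1 and Ctrl 1 h replicate 2, with values of 0.37 to 0.41.

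None of the 6 neighbours of LINC02474, GPAT2P1, TRBC2 or GRTP1 was called against both lines. ENSG00000235959, a neighbour of GPAT2P1, passed the threshold against Ctrl alone (-0.67, adjusted p = 0.00523, edgeR). Those of LINC02474 lay between -0.39 and 0.66, those of GPAT2P1 between -0.67 and 0.40, those of TRBC2 between -0.71 and 0.52, and those of GRTP1 between -0.19 and 0.68 (log2 differences of SoF from wt or Ctrl). LAMP1, a lysosomal membrane protein gene that ends 0.491 kb from GRTP1, held 92.4 CPM in SoF, 105 in wt and 102 in Ctrl. LINC00342, 6.89 kb from GPAT2P1, held 58.8 in SoF, 44.9 in wt and 54.2 in Ctrl. GPAT2, 222 kb from GPAT2P1, lay just beyond the neighbours used there. The farthest neighbour used was 1091 kb away, at LINC01029, so some members have few tested genes close by. With a time term in the fit, 8 of the 36 were called, and with the 0 h libraries alone 1 was.

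**Figure D4:**
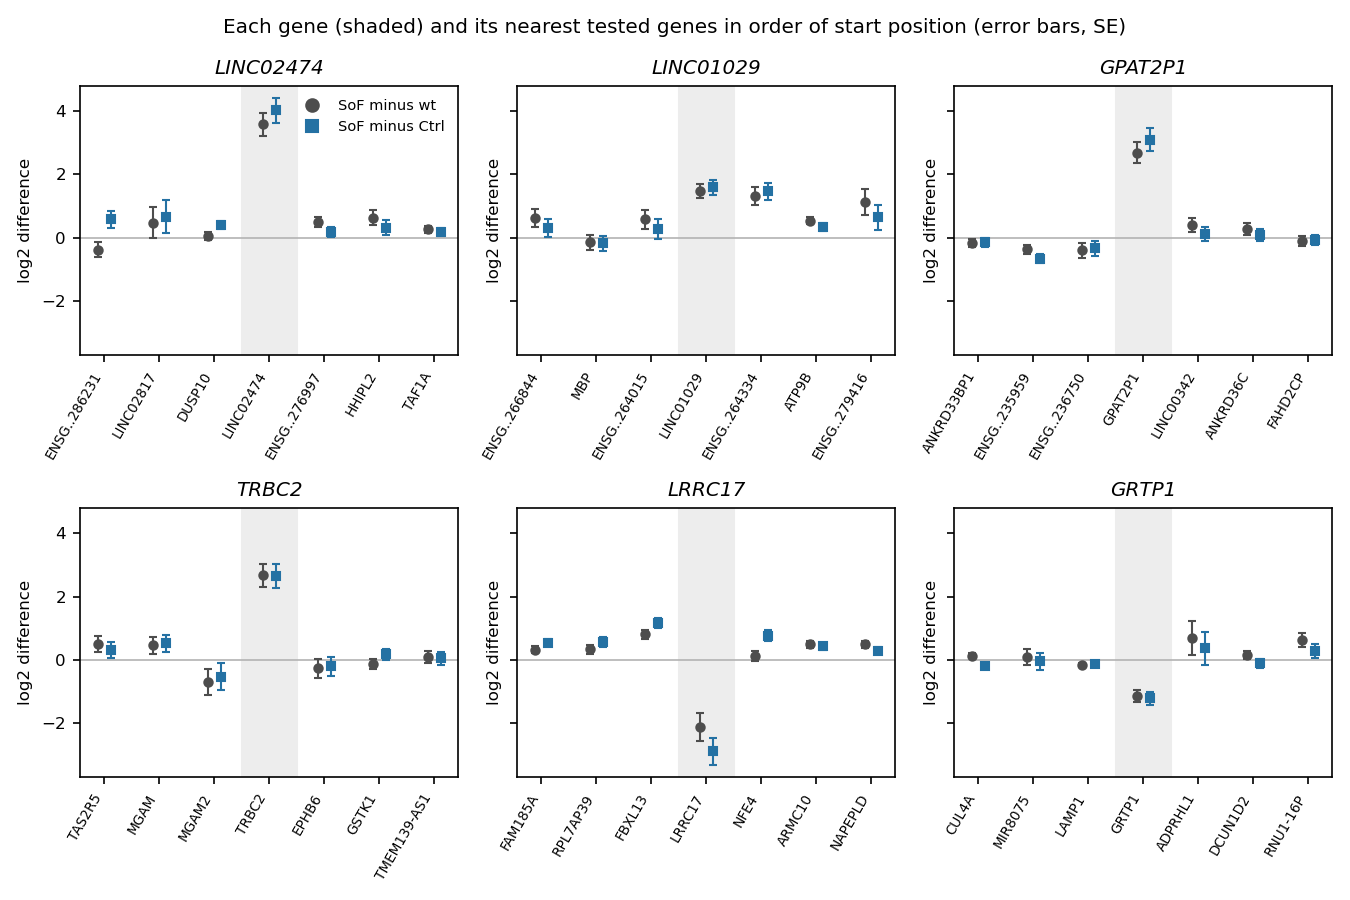
Log2 difference of SoF from wt (circles) and from Ctrl (squares) for each of the 6 genes (shaded) and its 3 nearest tested genes on each side, in order of start position, with SE bars. The members were chosen on this difference, so their distance from their rows was fixed by the choice. ENSG00000264334, nested in LINC01029, is also high, and LRRC17 is low in a row of genes above 0.

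The genes whose levels ran most like each member over the 24 libraries were found by Pearson's r of log2 CPM, which is a description because lines, depth and time are shared by all points. For LINC02474 these were LINC02582 (r = 0.957), ENOSF1 (0.914) and the histone gene H4C4 (0.901). LINC02582, on chromosome 18, held 5.07 ± 2.31 CPM in SoF, 0.854 ± 0.441 in wt and 0.455 ± 0.185 in Ctrl (SD, n = 8). For LINC01029 they were its nested gene (0.978), PLD1 (0.928) and ENSG00000285669 (0.926), and for GPAT2P1 LEPROTL1 (0.937), ZNF597 (0.918) and IL1RAPL1 (0.912).

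For TRBC2 the nearest patterns were ZKSCAN1 (0.903), DCTN6 (0.893) and PSMC2 (0.891), for LRRC17 SPANXC (0.877), SCAT1 (0.876) and MIR155HG (0.869), and for GRTP1 SDR42E1 (0.827), LRRC17 (0.759) and DYNC1H1 (0.753). ENSG00000285669, LEPROTL1 and DCTN6 lie on chromosome 8, PLD1 on chromosome 3, and ZKSCAN1 and PSMC2 on chromosome 7, where TRBC2 also lies. MIR155HG, the host gene of a microRNA, held 0.480 CPM in SoF, 2.17 in wt and 2.18 in Ctrl. Between members, r over the 24 libraries ran from -0.786 (GPAT2P1 and LRRC17) to 0.869 (LINC02474 and GPAT2P1). Over the 8 SoF libraries alone it was 0.819 for LINC01029 and TRBC2, which both had their lowest SoF means at 3 h. For LINC02474 and GPAT2P1 it was 0.156, so the closeness of that pair over all libraries came with the line difference that chose them. Other pairs of genes higher in SoF had negative r over these 8 libraries. The values were -0.754 for LINC01029 and GPAT2P1, -0.719 for LINC02474 and TRBC2, -0.524 for GPAT2P1 and TRBC2, and -0.31 for LINC02474 and LINC01029.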

How the data were processed

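The deposited table holds raw exon counts per gene for 24 libraries of 4sU-seq. The authors extracted molecular identifiers and removed duplicates with UMI-tools 1.1.2, trimmed with Trim Galore 0.6.6, aligned to hg38 with STAR 2.7.3a and counted with featureCounts on GENCODE release 39. Positions came from GENCODE release 44, to which 99.7% of the 61533 identifiers matched.

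Counts were tested in edgeR 4.0.16 (R 4.3.3) with TMM factors, filterByExpr (minimum count 10, minimum total 15), the quasi-likelihood test and Benjamini-Hochberg adjustment over all genes, with a threshold of 0.05. A fit of 12 groups (23651 genes) tested time and response differences, and a fit on line alone (21122 genes), which ignores time, tested Ctrl against wt and the neighbours. DESeq2 1.42.0 was the other tool. The fits were tested on simulated data, with changes planted only in genes above a mean count that GPAT2P1, TRBC2 and LRRC17 do not reach. That test says nothing of how well changes in those genes are found. Levels are CPM with TMM factors, with a prior count of 2 on the log2 scale. SEs are from the F statistic, and intervals for zero counts cover counting error only.

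The genes, lists and neighbour rule (3 tested genes on each side, 3 most alike genes) were chosen with earlier results of these data known. The 6 genes, their neighbours, the genes most alike, and the list members that were called were named. At most 4 others were named per list, except in the acyltransferase, T cell and osteoblast lists, where more were named. ZNF114, UCA1, SAA1 and SAA2 were named after their values were seen. Alternatives were other size factors, no filter, a replicate block, other handling of time, and leaving out each library.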

Additional observations from a re-analysis of the deposited data

Results flagged for a closer look

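Of the 18 sets of 8 libraries examined (6 genes in 3 lines), 1 held a library that stood apart by the gap to its nearest neighbour over the whole range. GRTP1 in wt at 2 h, replicate 1, was at 4.04 CPM where the next library was at 3.09, a gap of 0.527 of the range. Chance alone flags about 1 in 20 such sets. Those sets pool 4 times, so a change with time widens their range.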

How the results depend on the processing

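The log2 ratio of the SoF mean to the wt and Ctrl means kept its sign and moved by less than 1 SD for all 6 genes under both other scalings and each left-out library. The response differences stayed at 0 called genes under every alternative run, but DESeq2 gave no adjusted p to 5 of the 6 for SoF minus Ctrl. GPAT2P1 had 0 to 7 counts and TRBC2 0 to 11 in each wt and Ctrl library, which limits any call there, and with 2 libraries per group a single library decided several calls.

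Genes called over time in wt (0) became 1 under DESeq2, with no filter and with the replicate block, and ranged from 0 to 1 over left-out libraries. In SoF the count ranged from 0 to 1 and in Ctrl from 1 to 2, with 3 when no filter was used, where LINC01029 at 3 h was added. Between Ctrl and wt (0) the time term gave 1. Neighbours called (3) became 8 with the time term, 7 with the mean over times of 12 groups, 1 with the 0 h libraries alone, 0 without replicate 1 and 1 without replicate 2, with 2 to 4 over single libraries. The cause was not tested.

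Same-numbered libraries were not shown to be paired over all groups, with a median correlation of deviations of 0.038 over 66 pairs of groups (-0.22 to 0.57). That median pools the lines, and pairs within a line were not looked at apart. In SoF, LINC02474 was higher in replicate 1 at every time. With the replicate block LINC01029 in wt at 3 h was at -0.82 (adjusted p = 0.0454, edgeR) and the block changed no other call of the 6 genes.

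Signs that reversed were all of small, uncalled Ctrl minus wt differences. With the 0 h libraries alone these were LINC02474 (0.55), LINC01029 (0.12) and TRBC2 (-0.51). Without replicate 2 they were LINC01029 (0.19), GPAT2P1 (0.19) and TRBC2 (-0.15). Without replicate 1 the sign was kept for LINC01029 (-0.43) and GPAT2P1 (-1.80). Over single left-out libraries LINC01029 ran from -0.21 to 0.06, TRBC2 from -0.23 to 0.28 and GRTP1 from -0.012 to 0.157.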
